A study of Mus musculus with 6 samples.

Results

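The genes described are Ucp1, Cidea, Elovl3, Dio2 and Otop1, 5 genes known for their activity in brown fat, out of 24239 rows of a table of expression by mouse. Their rows were taken by gene symbol and set beside Adipoq, which encodes adiponectin and marks fat cells of every kind. The set was chosen by its FPKM values in these same 6 mice, which were known at the time, so those values are given as a description and no test is made of them. The ventricles came from male C57BL/6 mice of 8 to 10 weeks, with 3 mice in the pacing group and 3 in the sham group. Pacing mice were paced daily from an esophageal catheter lying near the atria, with 45 min at an 80 ms cycle, preceded and followed by 3 min at 120 ms. They were paced for 5 days, rested for 2 and paced for 3 more. Sham mice were control animals without pacing. The labels name no transgene, drug or mutation in either group. Stranded polyA libraries were made from flash-frozen ventricles, so any tissue that stayed on the ventricles contributes.

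Brown fat burns fatty acids to make heat. Its mitochondria hold UCP1, which lets protons back across the inner membrane without making ATP, and noradrenaline from sympathetic nerves, acting through the beta-3 receptor, drives both the release of fatty acids and the transcription of Ucp1. In mice brown fat lies between the shoulder blades and also around the thoracic aorta near the base of the heart, whereas white fat stores lipid and secretes leptin. Adiponectin is made by white and brown fat cells alike. A transcript made only by brown fat cells, read against Adipoq, is thus compared with fat transcripts in general.

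The promoters of Ucp1 and Otop1, from RefSeq's promoter table, are printed because these genes were high and low in the same mice. Each stretch is on the plus strand of GRCm38.p6 and runs from 250 bases before the start site to 50 bases from it. Capitals mark TGACG, the half-site of the cAMP response element, AGGTCA, the half-site bound by nuclear receptors, and TATAAA, the TATA box, each sought on both strands and without overlap with another.
Ucp1, chr8:83290098-83290397: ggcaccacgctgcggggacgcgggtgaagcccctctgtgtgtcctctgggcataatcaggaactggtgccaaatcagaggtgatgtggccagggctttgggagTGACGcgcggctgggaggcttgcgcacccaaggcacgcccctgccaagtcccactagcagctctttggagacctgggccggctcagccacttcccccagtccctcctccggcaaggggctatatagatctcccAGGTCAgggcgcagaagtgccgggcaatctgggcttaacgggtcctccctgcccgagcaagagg
Otop1, chr5:38277154-38277453: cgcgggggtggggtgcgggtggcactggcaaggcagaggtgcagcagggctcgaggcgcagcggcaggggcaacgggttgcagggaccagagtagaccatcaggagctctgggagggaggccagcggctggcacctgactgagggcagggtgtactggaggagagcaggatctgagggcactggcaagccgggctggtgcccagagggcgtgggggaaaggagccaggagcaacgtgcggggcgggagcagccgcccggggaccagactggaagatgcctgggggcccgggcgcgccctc
The Ucp1 stretch holds TGACG starting at position -147 and AGGTCA at position -14, counted from the start site, and no TATAAA, whereas the Otop1 stretch holds none of these letters. Of 27018 promoters of this length, 21.0% hold TGACG, 16.04% hold AGGTCA and 14.2% hold TATAAA. A match is a description of the letters, not a binding site. Only these exact letters were sought, and not other forms of the sites, such as the tatatag before AGGTCA in Ucp1.

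Levels are FPKM, fragments per kilobase of transcript scaled to library size, and are therefore per length. The lowest values stood in whole steps, which put the effective depth at 6272000 to 8905000 fragments per library and let the low values of 4 of the 5 genes be read as fragments. All 6 libraries held the ventricular markers, with Myl2, the ventricular myosin light chain, at 25481 to 26627 FPKM in pacing mice and 26899 to 39377 FPKM in sham mice. No pair of libraries shared more than 0.0135% of its values, but they differed in markers of tissue other than ventricle. The 10 lung and airway markers summed to 4.07, 317.6 and 1734 FPKM in pacing 1, 2 and 3, against 0.771 to 5.56 FPKM in sham mice. The 5 atrial markers summed to 5714, 14615 and 10434 FPKM in pacing 1, 2 and 3, against 12627, 424.2 and 5280 FPKM in sham 1, 2 and 3. In bulk tissue, more fat cells and more RNA per fat cell cannot be told apart.

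Transcripts of the brown fat genes were found in ventricles of both groups, and Ucp1 and Otop1 divided the mice in a way that the groups did not. Which cells made these transcripts was not tested. Ucp1 and Otop1 were high in pacing 1, pacing 2 and sham 1, and near their lowest level in pacing 3, although pacing 3 held as much Adipoq as sham 1. Cidea was likewise highest in pacing 1 but was well detected in every mouse, Dio2 was low throughout and highest in pacing 1, and Elovl3 was at the limit of detection.

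Ucp1, whose protein is the uncoupling channel itself, stood at 48.6, 30.2 and 1.06 FPKM in pacing 1, 2 and 3, against 21.1, 3.34 and 1.08 FPKM in sham 1, 2 and 3. The highest and the lowest of the 6 mice are thus both pacing mice, and the groups overlap, although pacing 1 and pacing 2 lie above every sham mouse. These levels rest on 581, 346 and 14 fragments in pacing mice and on 243, 39 and 10 fragments in sham mice. Counting error alone gives pacing 3 an exact Poisson 95% interval of 0.582 to 1.78 FPKM and sham 3 one of 0.517 to 1.98 FPKM, so the lowest mice cannot be ordered, whereas every higher neighbour in the order lies outside the interval of the next. Group means were 26.6 ± 24.0 FPKM in pacing and 8.49 ± 10.9 FPKM in sham mice (SD, n = 3 each), with SDs about as large as the means. Pacing minus sham was 1.34 on the log2(FPKM + 1) scale, which understates differences of low genes. It was 2.75 without pacing 3 and 0.46 without pacing 1. The row lies on chromosome 8 from 83290348 to 83298456 in mm10, and no other annotated gene shares its exons.

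**Figure D1:**
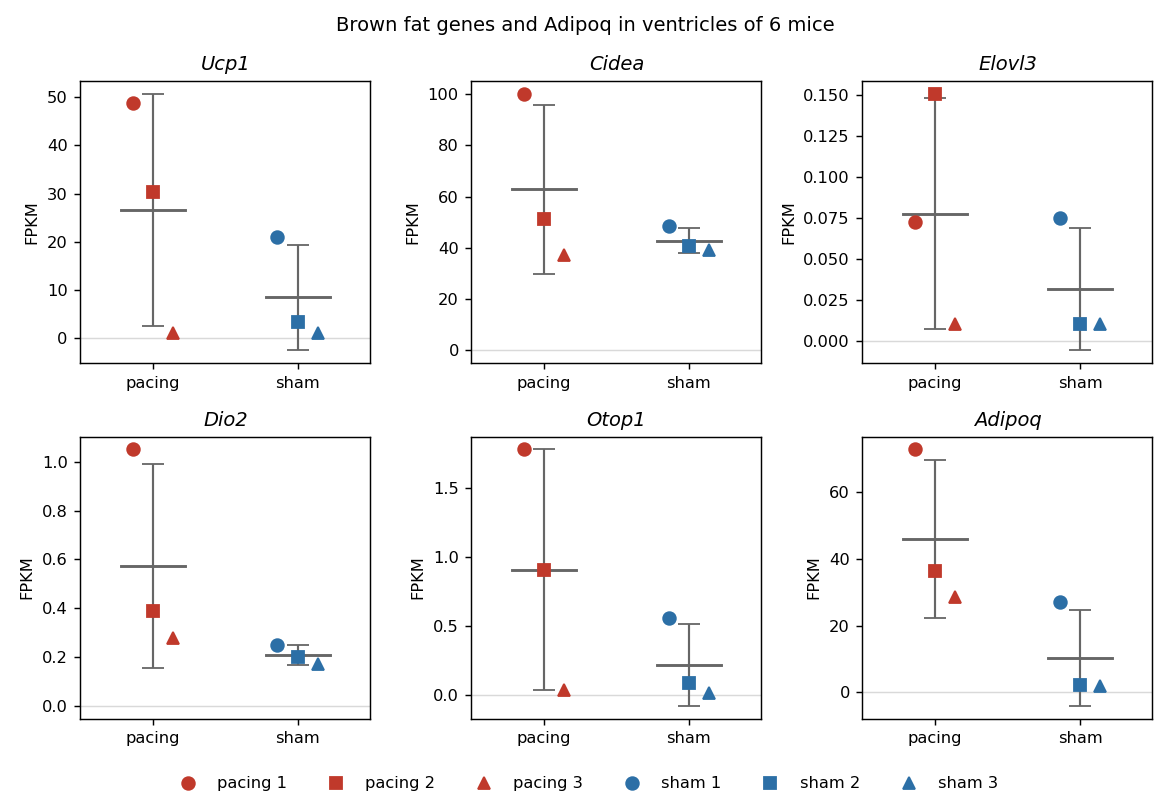
FPKM of the 5 brown fat genes and of Adipoq in ventricles, with pacing mice in red on the left and sham mice in blue on the right of each panel; horizontal lines are group means, bars are SD (n = 3 each), and every panel has its own linear axis. Pacing 3 lies far below pacing 1 and 2 for Ucp1 and Otop1 but at 28.6 FPKM for Adipoq, next to sham 1 at 27.0 FPKM.

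Otop1, a proton channel known in mouse as the sour taste receptor and also active in brown fat, stood at 1.78, 0.908 and 0.0376 FPKM in pacing 1, 2 and 3, against 0.558 and 0.0849 FPKM in sham 1 and 2. In sham 3 it was listed at 0.01, the value that stands for no fragment. In fragments these are 43, 21 and 1 in pacing mice and 13, 2 and 0 in sham mice, and a count of 0 allows up to 0.16 FPKM in sham 3, taking 3 fragments as the limit, or 0.197 FPKM by the exact two-sided Poisson interval used for the other values. The mice with high Otop1 are thus the mice with high Ucp1. Pacing 1 exceeded pacing 3 by 45.7-fold for Ucp1. For Otop1 the ratio was 47.4, against a lone fragment in pacing 3 whose interval runs from 0.00095 to 0.21 FPKM. Intervals and limits cover counting error only. Pacing minus sham was 0.56 on the log2(FPKM + 1) scale for Otop1, 0.95 without pacing 3 and 0.24 without pacing 1. Its row spans 38277404 to 38304217 on chromosome 5.

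Cidea, which encodes a lipid droplet protein that in mice is abundant in brown fat, stood at 100.1, 51.3 and 37.3 FPKM in pacing 1, 2 and 3, against 48.6, 40.7 and 39.3 FPKM in sham 1, 2 and 3. Pacing 1 exceeded pacing 3 by 2.68-fold, where for Ucp1 the figure was 45.7-fold. Counting intervals from the approximate fragments overlap among sham 2, sham 3 and pacing 3. That of sham 1 overlaps those of pacing 2, sham 2 and sham 3. Mice whose intervals overlap cannot be ordered for Cidea. Sham 2, sham 3 and pacing 3, with Ucp1 at 3.34, 1.08 and 1.06 FPKM, still held Cidea at 37.3 to 40.7 FPKM, and pacing 1 alone stood well apart. Means were 62.9 ± 33.0 FPKM in pacing and 42.8 ± 5.06 FPKM in sham mice (SD, n = 3 each), and the difference of 0.43 on the log2(FPKM + 1) scale became 0.04 without pacing 1 and 0.74 without pacing 3. The row, on chromosome 18 from 67321209 to 67367794, also covers B430212C06Rik on the other strand, which has a row of its own at 1.42 to 1.61 FPKM in pacing and 1.55 to 1.95 FPKM in sham mice. The annotation gives the pair no exonic base in common.

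Dio2, the deiodinase that makes the active thyroid hormone T3 from T4, stood at 1.05, 0.388 and 0.278 FPKM in pacing 1, 2 and 3, against 0.249, 0.202 and 0.169 FPKM in sham 1, 2 and 3. It is the member whose groups do not overlap, 1 of 5, where 6.68% of 17472 genes seen in at least 1 mouse had every pacing mouse above every sham mouse. The gap is narrow, since pacing 3 had 14 fragments and sham 1 had 11, with Poisson 95% intervals of 0.152 to 0.467 and 0.125 to 0.446 FPKM. Pacing 1, with 48 fragments, lies above the interval of every other mouse. The row lies on chromosome 12 from 90724552 to 90738438, and the lncRNA Gm26512 on the other strand shares 100 of its 5815 exonic bases. Pacing minus sham was 0.35 on the log2(FPKM + 1) scale and 0.14 without pacing 1.

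Elovl3, which lengthens fatty acids and in mice is induced in brown fat by cold, stood at 0.0722 and 0.151 FPKM in pacing 1 and 2 and at 0.0748 FPKM in sham 1, and was listed at 0.01 in pacing 3, sham 2 and sham 3. These values are 1, 2 and 1 fragments, so that no difference between mice was detectable at this depth. The mice with a fragment are those with the most Ucp1, while a count of 0 allows up to 0.196 FPKM in pacing 3 and 0.279 FPKM in sham 3 at 3 fragments, or 0.242 FPKM in pacing 3 and 0.343 FPKM in sham 3 by the two-sided interval. The row, on chromosome 19 from 46131899 to 46148325, covers Pitx3 on the other strand too, which shares 10 exonic bases with Elovl3 and has its own row at up to 0.32 FPKM in pacing and 0.526 FPKM in sham mice.

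All 5 genes had a positive difference, though Elovl3 had at most 2 fragments in any mouse. Of the 11994 genes tested, which leave out Elovl3, Dio2 and Otop1, 48.2% had a positive and 51.8% a negative difference. Of the 5, 2 genes, Ucp1 and Cidea, had a mean of at least 1 FPKM over all mice and so entered the fit across genes. That fit (limma with Benjamini-Hochberg adjustment over 11994 genes) called no gene at an adjusted p of 0.05, that is 0 higher (0.0%) and 0 lower (0.0%). At an unadjusted p under 0.05 it had 620 higher (5.17%) and 442 lower (3.69%), a split that became 968 and 148 after rescaling to equal sums, 514 and 609 after median centring and 540 and 584 after quantile normalization. The 0 turned to 106 higher and 1 lower without sham 1, to 7 higher and 1 lower without pacing 1, and to 1 higher without pacing 3. Neither Ucp1 nor Cidea was among these. In the authors' deposited table Ucp1 and Cidea are called higher and the other 3 genes are not, where 1.23% of its rows were called higher. The log2 fold changes of pacing over sham in the authors' deposited table are 1.65 for Ucp1 and 0.55 for Cidea, and since the members were chosen with this comparison known, nothing is read from these calls.

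Read against Adipoq, Ucp1 and Otop1 of pacing 3 stood apart from those of the other mice, and Cidea and Dio2 did not. Adipoq stood at 72.8, 36.2 and 28.6 FPKM in pacing 1, 2 and 3, against 27.0, 2.14 and 1.94 FPKM in sham 1, 2 and 3. The groups did not overlap, where 6.24% of genes tested were higher in each pacing mouse than in any sham mouse. The gap is narrow, with 272 fragments in pacing 3 and 225 in sham 1. Their Poisson 95% intervals of 25.3 to 32.3 and 23.6 to 30.8 FPKM overlap. The ratio of Ucp1 to Adipoq was 0.668, 0.834 and 0.0371 in pacing 1, 2 and 3, against 0.779, 1.56 and 0.555 in sham 1, 2 and 3. It thus lay between 0.555 and 1.56 in 5 mice, over a wide range of Adipoq, and was lower by more than a factor of 10 in pacing 3 alone. The ratios of sham 2 and sham 3 are loose, since Adipoq there rests on 18 and 13 fragments. Their Poisson 95% intervals run from 1.27 to 3.38 and from 1.04 to 3.33 FPKM. No interval was computed for any ratio. The ratio of Otop1 to Adipoq was 0.0245, 0.0251 and 0.00131 in pacing 1, 2 and 3, against 0.0206 and 0.0397 in sham 1 and 2, and sham 3 gives none. It rests on 1 fragment of Otop1 in pacing 3 and on 2 in sham 2. Pacing 3 again lay lowest, while pacing 1, pacing 2 and sham 1 had almost the same ratio. With Cidec in place of Adipoq, the ratio of Ucp1 was 1.14, 1.47 and 0.0592 in pacing mice and 1.57, 2.53 and 1.15 in sham mice. With Plin1 it was 3.33, 2.60 and 0.173 in pacing mice and 2.69, 6.39 and 11.5 in sham mice.

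**Figure D2:**
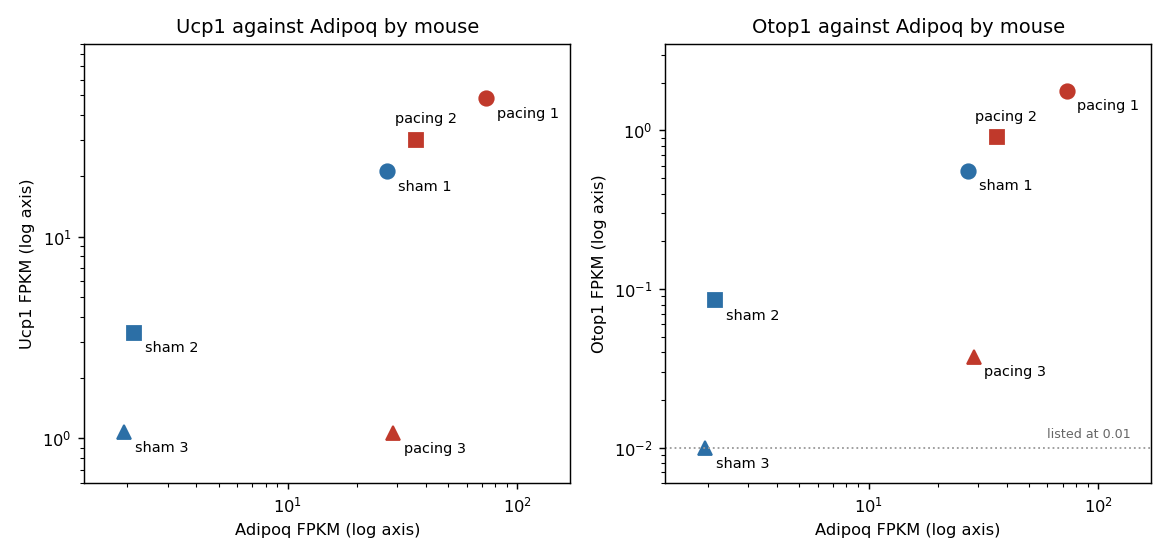
FPKM of Ucp1 (left) and Otop1 (right) against FPKM of Adipoq in each mouse, both axes logarithmic, with pacing mice in red and sham mice in blue; the dotted line marks the value 0.01 that stands for no fragment. Pacing 1, pacing 2 and sham 1 lie at the top right, sham 2 and sham 3 at the lower left, and pacing 3 at the lower right, with Adipoq at 28.6 FPKM and Ucp1 at 1.06 FPKM.

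Cidea and Dio2 gave another picture in the same ratio. Cidea to Adipoq was 1.37, 1.41 and 1.304 in pacing 1, 2 and 3, against 1.80, 19.0 and 20.2 in sham 1, 2 and 3. Sham 2 and sham 3, which held least Adipoq, thus kept Cidea without it. Dio2 to Adipoq was 0.0144, 0.0107 and 0.00971 in pacing 1, 2 and 3, against 0.00923, 0.0943 and 0.0873 in sham 1, 2 and 3. In sham 2 and sham 3 the Dio2 ratio rests on 9 and 6 fragments of Dio2 and on 18 and 13 of Adipoq. For Cidea and Dio2, pacing 3 does not stand apart from pacing 1 and 2.

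**Figure D3:**
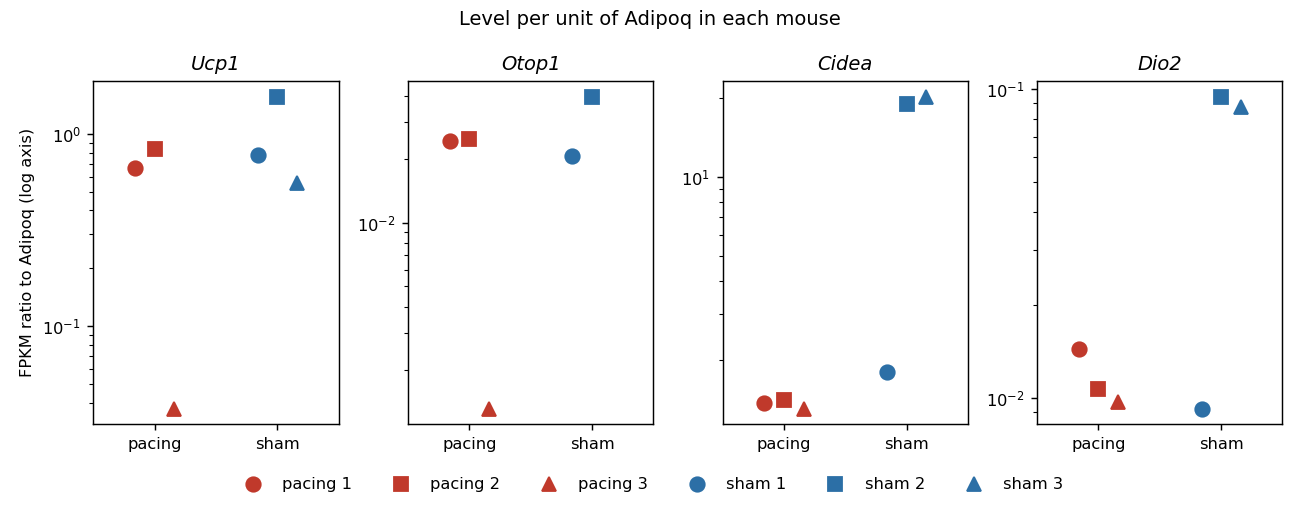
Ratio of the FPKM of Ucp1, Otop1, Cidea and Dio2 to that of Adipoq in each mouse on logarithmic axes, with pacing mice in red on the left and sham mice in blue on the right; Otop1 has no ratio in sham 3, where it was listed at 0.01. Pacing 3 lies far below the rest for Ucp1 (0.0371) and Otop1 (0.00131), and sham 2 and sham 3 lie far above the rest for Cidea and Dio2.

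Other fat genes did not place pacing 3 alike. All 13 tested of 16 adipocyte markers had a positive difference, 0 were called over all genes, and their median log2 fold change was 1.75, beside -0.01 over all genes tested. Of these genes 6 were separated, higher in each pacing mouse than in any sham mouse, where 6.24% of genes tested were. Without sham 1, limma called 8 of the 13 higher, among them Adipoq, Plin1 and Adrb3, and 106 of all 11994 genes. Leaving out any other single mouse called none of the list. Sham 1 held the most Adipoq of the sham mice, so leaving it out widens the difference, and nothing is read from this count. The list was chosen with earlier results of these data known. Car3, a carbonic anhydrase abundant in fat, stood at 271.3, 129.5 and 113.0 FPKM in pacing 1, 2 and 3, against 80.7, 11.0 and 3.74 FPKM in sham 1, 2 and 3 (limma log2 fold change 3.26, SE 0.88, adjusted p = 0.399). Cfd, which encodes adipsin, stood at 167.9, 122.4 and 115.8 FPKM in pacing mice and at 110.3, 7.35 and 5.45 FPKM in sham mice. Cidec, which encodes a lipid droplet protein of fat cells and is a relative of Cidea, stood at 42.9, 20.6 and 18.0 FPKM in pacing mice. In sham mice it stood at 13.4, 1.32 and 0.934 FPKM. In these, as for Adipoq, pacing 3 lay above all sham mice, which held for 9 of the 16 markers. Some margins were narrow, as for Tusc5 at 3.76 FPKM in pacing 3 and 3.67 FPKM in sham 1. For Acvr1c these were 0.264 and 0.256 FPKM. The share of all genes with pacing 3 above all sham mice was not computed, so nothing is read from the count. In 6 others, namely Plin1, Retn, Pck1, Lipe, Adig and Fabp4, pacing 3 lay below sham 1. Pck1, which makes glycerol phosphate for lipid storage, stood at 51.3, 22.9 and 9.58 FPKM in pacing 1, 2 and 3, against 22.6, 2.48 and 0.586 FPKM in sham 1, 2 and 3. The median of the list was 1.09 without sham 3. Fabp4, also active in blood vessels, overlapped at 1502 to 1951 FPKM in pacing and 1581 to 1715 FPKM in sham mice.

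Of 9 genes known as enriched in white fat, Lep, Slc7a10 and Nnat were highest in pacing 3, where Ucp1 was low, and the other 6 were not. Fragments of these genes were not read and no counting interval was computed. Whether pacing 3 lies above the next mouse by more than counting error is therefore not known. Lep, which encodes leptin, stood at 1.12, 0.918 and 1.34 FPKM in pacing 1, 2 and 3, against 0.166, 0.328 and 0.103 FPKM in sham 1, 2 and 3. Slc7a10, an amino acid transporter at the surface of white fat cells, stood at 1.04, 0.941 and 1.51 FPKM in pacing mice and at 0.359 FPKM in sham 1, and was listed at 0.01 in sham 2 and sham 3. Nnat, neuronatin, stood at 3.04, 3.77 and 5.72 FPKM in pacing mice and at 4.26, 0.76 and 0.636 FPKM in sham mice. Retn, the resistin gene, was highest in pacing 1, with 14.9, 10.9 and 7.29 FPKM in pacing mice and 7.69, 2.44 and 0.382 FPKM in sham mice. Of the 9 genes of this list 5 were tested, with 0 called and a median log2 fold change of 0.38, Hoxc8 and Hoxc9 were listed at 0.01 in every mouse, and the more widely active Dpt and Tcf21 were highest in sham 1. Agt, angiotensinogen, was highest in pacing 2, at 2.37, 4.01 and 2.68 FPKM in pacing mice and 3.22, 2.73 and 2.00 FPKM in sham mice. The median was 0.18 without sham 2 and 0.64 without sham 1.

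**Figure D4:**
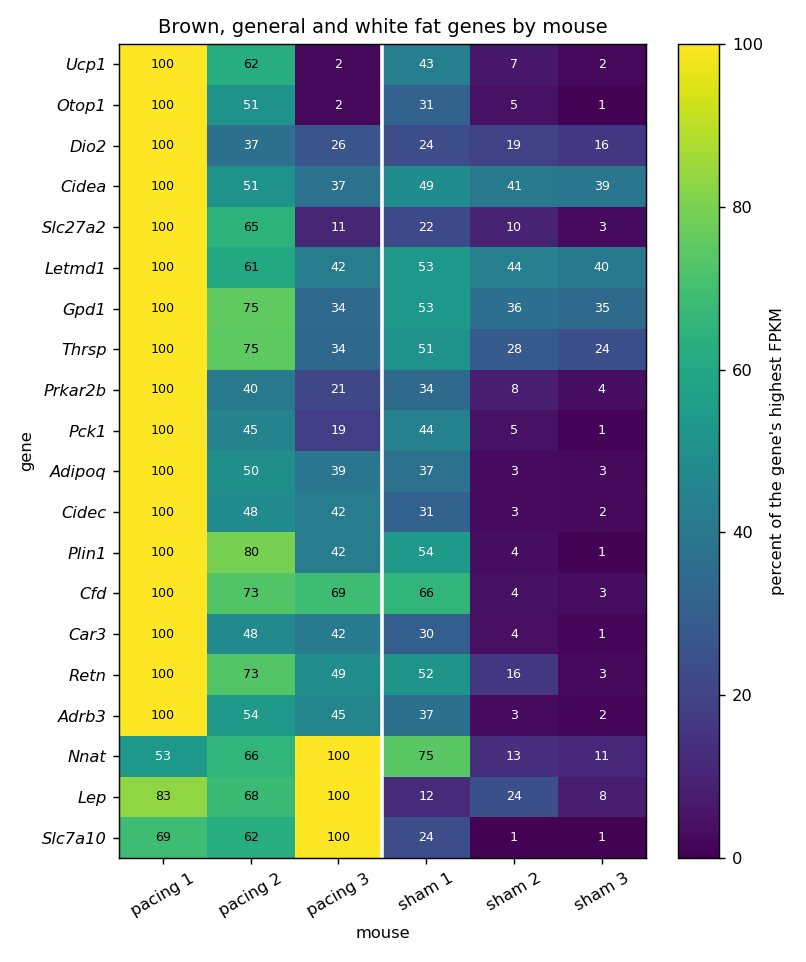
FPKM of 20 fat genes in each mouse as a percent of the gene's highest mouse, with pacing mice in the left columns and sham mice in the right columns; the genes were chosen after their values were seen, and the value listed for no fragment counts as measured. In pacing 3, Ucp1 and Otop1 stand at 2% of their highest level, Adipoq at 39%, and Nnat, Lep and Slc7a10 at their highest. No counting interval was computed for Nnat, Lep and Slc7a10.

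The genes whose levels over the 6 mice were most like those of the 5 members were sought by Pearson correlation of log2(FPKM + 1) with the mean of the members, each scaled to the same mean and SD. Each member weighs the same in that mean, also Elovl3 with at most 2 fragments in any mouse. All 11994 tested genes share the same 6 libraries, and even Adipoq, at place 364, had r = 0.77. The best of so many genes over 6 mice can reach a high r by the search alone, so the places are a description. Gpd1, the glycerol-3-phosphate dehydrogenase of the cytosol, came first (r = 0.997, n = 6 mice), at 122.6, 92.5 and 42.0 FPKM in pacing 1, 2 and 3, against 65.3, 44.6 and 42.4 FPKM in sham 1, 2 and 3. Thrsp, a thyroid hormone responsive gene of lipid synthesis, came at place 3 (r = 0.98), at 123.7, 92.9 and 41.7 FPKM in pacing mice and 63.3, 35.1 and 29.9 FPKM in sham mice. Smim13, Ywhah and Stim1 filled the other places (r = 0.97 to 0.98), with ranges as narrow as 9.41 to 10.6 FPKM in pacing and 9.46 to 10.1 FPKM in sham mice for Smim13. Against Ucp1 alone the first 5 were Smpd4, Ufm1, Tpp1, Smim13 and Tspan33 (r up to 0.997), and Adipoq came at place 480 (r = 0.72).

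Genes that carry out heat production, other than the 5 members, lay on either side of no difference. Of 21 thermogenic effectors 20 were tested, 8 with a positive and 12 with a negative difference, 0 called, and a median log2 fold change of -0.13 beside -0.01 over all genes. That median was -0.06 without pacing 3 and -0.08 without sham 3. Many of them serve heart muscle as well. Fabp3, the fatty acid binding protein of heart muscle, stood at 9001 to 9808 FPKM in pacing and 8902 to 11784 FPKM in sham mice. Cox7a1, a cytochrome oxidase subunit of heart, muscle and brown fat, stood at 4473, 4424 and 4197 FPKM in pacing 1, 2 and 3, against 5085, 5144 and 5713 FPKM in sham 1, 2 and 3, without overlap (limma log2 fold change -0.28, SE 0.10, adjusted p = 0.511). Gyk, glycerol kinase, also lay lower in every pacing mouse, at 9.03 ± 0.622 FPKM against 12.4 ± 2.12 FPKM in sham mice (SD, n = 3 each). Of the list 4 genes were lower without overlap, where 6.97% of genes tested were.

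**Figure D5:**
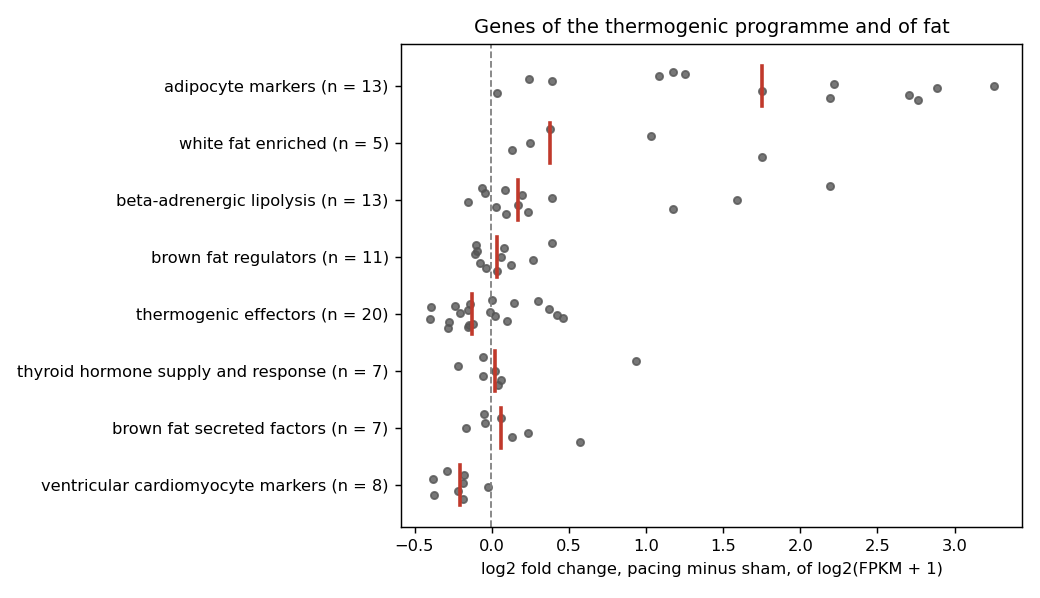
Log2 fold change of each tested gene, on the log2(FPKM + 1) scale with pacing first, in 8 lists without the 5 brown fat genes; each point is a gene, red bars are list medians and the dashed line is the median of all genes tested. Adipocyte markers lie to the right (median 1.75), while regulators of brown fat (0.03) and thermogenic effectors (-0.13) lie around the dashed line.

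Within that list a few genes were, like Ucp1, highest in pacing 1 and pacing 2; they were named after their values were seen or for their large difference. Slc27a2, a fatty acid transporter, stood at 2.43, 1.57 and 0.263 FPKM in pacing 1, 2 and 3, against 0.54, 0.237 and 0.0747 FPKM in sham 1, 2 and 3. Letmd1, a mitochondrial protein needed for heat production in mouse brown fat, stood at 12.6, 7.65 and 5.30 FPKM in pacing mice and at 6.74, 5.51 and 5.09 FPKM in sham mice, with r = 0.97 to the mean of the members. Gpd2, the mitochondrial partner of Gpd1, stood at 6.93, 5.21 and 4.01 FPKM in pacing mice and at 5.03, 3.54 and 2.47 FPKM in sham mice. In all 3 genes pacing 1 and pacing 2 were the highest mice and pacing 3 lay below sham 1. The same held for Acot11, at 7.71, 7.57 and 4.81 FPKM in pacing mice and 5.43, 7.35 and 5.57 FPKM in sham mice. Slc36a2 and S100b were also highest in pacing 1 and pacing 2, but pacing 3 lay above sham 1. The rest of the list did not have pacing 1 and pacing 2 as the highest mice.

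The transcription factors and coactivators listed as brown fat regulators ranged from well detected to listed at 0.01. In whole ventricle their transcripts need not come from fat cells, and their source was not tested. Of 14 regulators 11 were tested, all of them overlapping between the groups, 6 positive and 5 negative, with 0 called and a median log2 fold change of 0.03, whose sign changed under 6 of 15 alternatives. Prdm16, which drives the brown fat fate, stood at 2.21, 1.89 and 1.78 FPKM in pacing 1, 2 and 3, against 1.38, 2.58 and 1.82 FPKM in sham 1, 2 and 3. Ppargc1a, the coactivator of mitochondrial biogenesis, stood at 14.6 to 17.0 FPKM in pacing and 15.2 to 21.7 FPKM in sham mice, and Esrra at 65.2 to 79.7 FPKM in pacing and 63.7 to 72.2 FPKM in sham mice. Pparg, the master regulator of fat cells, stood at 15.0, 13.9 and 9.64 FPKM in pacing mice and at 9.59, 11.9 and 9.60 FPKM in sham mice. Cebpb had the largest difference of the list, at 6.73 to 9.43 FPKM in pacing and 4.17 to 8.06 FPKM in sham mice (limma log2 fold change 0.39, SE 0.20, adjusted p = 0.642). Zic1, a marker of interscapular brown fat, was listed at 0.01 in every mouse but pacing 3, where it stood at 0.0353 FPKM. Lhx8, likewise a brown fat marker in mice, stood at 0.0683, 0.143 and 0.062 FPKM in pacing mice and at 0.01 in all sham mice. Such an order, with every pacing mouse above every sham mouse, held for 6.68% of 17472 genes seen in at least 1 mouse. The Zic1 and Lhx8 values lie near the limit of detection and their fragments were not read, so no difference between mice is drawn from them. Prdm16, Zic1 and Lhx8 were singled out after their values were seen.

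In the pathway that turns on heat production, the fat genes had the largest differences. Adrb3, the beta-3 adrenergic receptor, stood at 3.29, 1.77 and 1.49 FPKM in pacing 1, 2 and 3, against 1.22, 0.0964 and 0.0607 FPKM in sham 1, 2 and 3 (limma log2 fold change 1.17, SE 0.32, adjusted p = 0.399). Prkar2b, the protein kinase A subunit abundant in fat, stood at 19.6, 7.88 and 4.15 FPKM in pacing mice and at 6.74, 1.63 and 0.70 FPKM in sham mice. Pacing 1 was the highest mouse for both, and of the 13 genes of this list Adrb3 alone was higher in each pacing mouse than in any sham mouse, where 6.24% of all genes tested were. Prkaca, a catalytic subunit of protein kinase A, was alone in being lower without overlap, at 120.5 to 128.2 FPKM in pacing and 128.6 to 145.1 FPKM in sham mice. Plin1, which coats lipid droplets of fat cells, stood at 14.6, 11.6 and 6.16 FPKM in pacing mice and at 7.83, 0.524 and 0.0941 FPKM in sham mice. Lipe, hormone-sensitive lipase, stood at 34.4 to 46.0 FPKM in pacing and 26.3 to 35.9 FPKM in sham mice. Gnas and Pnpla2, active in heart muscle too, overlapped at 709.0 to 776.3 and 143.0 to 215.6 FPKM in pacing mice and 696.5 to 805.3 and 138.2 to 162.3 FPKM in sham mice. Of the 13 genes, 10 were positive, 0 were called and the median log2 fold change was 0.17, or 0.04 without pacing 1.

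Among relatives of the 5 genes, Elovl6 was, like Ucp1, highest in pacing 1 and pacing 2 and lower in pacing 3 than in sham 1, and the others were not. Ucp2, a relative of Ucp1 found in many cell types, stood at 88.7, 152.5 and 122.5 FPKM in pacing 1, 2 and 3, against 103.6, 55.3 and 79.5 FPKM in sham 1, 2 and 3. Ucp3, the relative active in heart and skeletal muscle, stood at 53.1, 60.8 and 56.1 FPKM in pacing mice and at 92.9, 62.9 and 74.3 FPKM in sham mice, lower in every pacing mouse (limma log2 fold change -0.41, SE 0.14, adjusted p = 0.478). Both were above Ucp1 in every mouse. Cideb overlapped at 4.35 to 6.03 FPKM in pacing and 4.53 to 5.72 FPKM in sham mice. Elovl6, an elongase of fatty acid synthesis, stood at 2.69, 3.59 and 1.88 FPKM in pacing mice and at 2.04, 0.526 and 0.221 FPKM in sham mice. Elovl1 and Elovl5 stood at 12.9 to 17.0 and 13.3 to 14.6 FPKM in pacing mice and 13.0 to 15.4 and 12.2 to 14.9 FPKM in sham mice and were the most abundant elongases. Elovl2, Elovl4 and Elovl7 reached at most 0.22 FPKM in pacing and 0.212 FPKM in sham mice. Dio1, Otop2 and Otop3 were listed at 0.01 in every mouse, and Dio3, which inactivates thyroid hormone, reached at most 0.0727 FPKM in pacing and 0.0753 FPKM in sham mice.

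Genes of thyroid hormone supply and response, which Dio2 serves, lay on either side of no difference. Of 7 tested 4 were positive, 0 were called and the median log2 fold change was 0.02, with its sign changed under 7 of 15 alternatives. Thrsp, given above, had the largest difference (limma log2 fold change 0.93, SE 0.39, adjusted p = 0.555), and Hr, a direct target of the receptor, stood at 3.58 to 4.46 FPKM in pacing and 4.26 to 5.42 FPKM in sham mice. The receptor gene Thra stood at 39.1 to 42.8 FPKM in pacing and 34.1 to 41.7 FPKM in sham mice, and Me1, malic enzyme, at 57.5 to 63.5 FPKM in pacing and 59.1 to 67.4 FPKM in sham mice. Of factors that brown fat secretes, Nrg4, a growth factor, stood at 4.28, 2.71 and 2.42 FPKM in pacing 1, 2 and 3, against 2.47, 1.80 and 1.09 FPKM in sham 1, 2 and 3 (limma log2 fold change 0.58, SE 0.22, adjusted p = 0.539). Fgf21 and Bmp8b were listed at 0.01 in every mouse. Vegfa, which drives vessel growth, stood at 77.6 to 81.4 FPKM in pacing and 86.1 to 92.9 FPKM in sham mice, without overlap (limma log2 fold change -0.17, SE 0.07, adjusted p = 0.562). Igf1 and Ptgds overlapped, and Gdf15 and Il6 reached at most 0.135 FPKM in pacing and 0.52 FPKM in sham mice. In this list 4 of 7 tested genes were positive, 0 were called and the median was 0.06. The beige fat markers were low, with Tbx1 at 0.399 to 1.07 FPKM in pacing and 0.157 to 0.633 FPKM in sham mice, Cited1 at 0.74 to 1.27 FPKM in pacing and 0.418 to 2.32 FPKM in sham mice, and Tmem26 and Tnfrsf9 at no more than 0.0689 FPKM in pacing and 0.14 FPKM in sham mice.

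Markers of other tissues did not share the order of Ucp1. The lung gene Sftpc stood at 0.195, 152.7 and 430.1 FPKM in pacing 1, 2 and 3, against 1.005, 0.199 and 0.999 FPKM in sham 1, 2 and 3. It was highest in pacing 3, where Ucp1 was lowest, and near its lowest in pacing 1, where Ucp1 was highest. The atrial gene Myl7 stood at 1141, 3520 and 2358 FPKM in pacing mice and at 2700, 31.4 and 966 FPKM in sham mice, so that sham 2 held the least and pacing 2 the most. The fast skeletal muscle genes Myh1, Myh2 and Myh4 reached at most 0.0421 FPKM in pacing and 0.0219 FPKM in sham mice, and the 8 thymocyte markers summed to 0.798 to 2.45 FPKM in pacing and 1.21 to 3.97 FPKM in sham mice. Of 5 squamous epithelium markers 3 were at 0.01 in every mouse. The 5 mesothelial markers summed to 35.9, 73.7 and 75.3 FPKM in pacing mice and 54.8, 18.8 and 30.2 FPKM in sham mice. The part of these tissues in the brown fat values was not tested.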

How the data were processed

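Per the file headers, the deposited data are FPKM values by gene and mouse and a table by group with FPKM, a q-value and the log2 fold change, pacing over sham. The tools in the submitters' processing notes are TopHat2 2.1.0 with Bowtie2 2.2.6, Cufflinks and Cuffdiff, FastQC 1.0.0, and the build is mm10. Whether fragments were counted by strand is not given in the sources, so antisense overlaps were not separated. Row starts count from 0 (51.3% equal RefSeq's starts after adding 1, as printed, and 2.94% as deposited). A row's span can cover neighbouring genes.

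A count model was not used, since FPKM values are normalized. The limma 3.58.1 fit (R 4.3.3) took log2(FPKM + 1) of the 11994 genes whose mean reached 1 FPKM, with pacing or sham as its single factor and a mean-variance trend. Tests were two-sided with Benjamini-Hochberg adjustment. The fit was checked on simulated data, and 1 row with a failed value was left out. The labels call the samples replicates without saying more, and the design text gives 3 mice per group, so each was taken as a mouse.

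Depth was read from 860 genes with 1 annotated transcript of 800 to 3000 bases, shortened by 166 bases. Values under 10 fragments were whole within 0.05 of a fragment in 99.1% to 100% of cases by library. For each member the annotated transcript that gave the closest whole values was used, and 17 low values (under 50 fragments) then lay within 0.0303 of a whole fragment. The fragments of Cidea could not be checked in this way.

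The members and lists were chosen with earlier results of these data known. Named were the members, Adipoq, the 5 genes most like the members and the 5 most like Ucp1, detected genes of the members' families and, from each other list, up to 4 genes with the largest difference and the 2 with the highest mean. Some of these are given only in the list counts, and other genes were named after their values were seen. Symbols were matched exactly, and all list genes were found. Settings varied were the pseudocount (0.1, 0.5), the filter (none, or 5), the scaling (equal sums, medians, quantiles), the trend, a block by replicate number, and the mice used: each left out in turn, or pacing 2 and 3 together. Leaving out each mouse for the ratios was added after seeing the data. Promoters are RefSeq's (GRCm38.p6), and 3 of 5 members had one.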

Additional observations from a re-analysis of the deposited data

How the results depend on the processing

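With 3 mice a group that differ among themselves by more than the groups do, the member differences rest on single mice. Leaving out each mouse in turn gave log2 differences, pacing minus sham, of 0.46 to 2.75 for Ucp1, 0.04 to 0.74 for Cidea, 0.01 to 0.11 for Elovl3, 0.14 to 0.48 for Dio2 and 0.24 to 0.95 for Otop1, all positive. It gave 0 to 106 genes called higher and 0 to 1 called lower. The log2 ratios to Adipoq, pacing minus sham, kept their sign. They were -2.48 to -0.23 for Ucp1, -3.85 to -2.10 for Cidea, -2.99 to -1.31 for Dio2 and -2.34 to -0.21 for Otop1. With Plin1 or Cidec in place of Adipoq they moved by less than the spread between mice. For Ucp1 and Otop1 the difference rests largely on pacing 3, falling from -1.68 to -0.23 and from -1.62 to -0.21 without it. For Cidea and Dio2 it rests on sham 2 and sham 3, where Adipoq had 18 and 13 fragments. Leaving out sham 3 could not move Otop1, which has no ratio there. No effect of pacing is read from the signs. A pseudocount of 0.1 gave 0.39 for Elovl3, 0.97 for Dio2 and 1.43 for Otop1, since these lie below 2 FPKM. Without pacing 2 and 3 together the values were 1.21 for Cidea, 0.77 for Dio2 and 1.22 for Otop1. The other 59 recomputed member differences moved by less than the spread between mice. Among them is Ucp1 without pacing 2 and 3, at 3.09 against 1.34 with all mice, since its spread is wide. The replicate block is also among them but could not move a member difference, which was taken from group means. The medians of the brown fat regulators, thyroid hormone genes, secreted factors, thermogenic effectors and fast skeletal muscle markers changed sign under 6, 7, 2, 1 and 1 of their alternatives.

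Replicate numbers did not pair the mice: deviations of same-numbered mice had correlations of -0.13, -0.02 and -0.02, none the best match. With a replicate block 7 genes were called higher and 0 lower, among them Adig and Prkar2b and no member. Cause was not tested for any of these.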
